A study of Mus musculus with 24 samples.

Results

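The genes described here make and desaturate fatty acids. They are Srebf1, Acly, Acaca, Acacb, Fasn, Elovl6, Scd1, Scd2, Fads1 and Fads2, 10 of the 55471 genes counted in mouse hypothalamus. They were chosen by name for their place in the pathway and not by a cut on their values, though earlier results of these data were known. All 10 were among the 18992 genes that passed the filter on low counts. The RNA came from chow-fed male C57BL6/J mice, 18 weeks old and wild type in every group. Mice with experimental overfeeding (ExpOF) received a liquid diet with added sucrose through a gastric tube, in amounts that rose stepwise to 150% of the baseline energy intake, while control mice received sterile water at equal rates. Hypothalami were taken after 14 days of infusion (d14) or 3 days after both groups had been put on water (d14+3), from 6 mice in each of the 4 groups. The comparisons ask how the overfed hypothalamus differs from control during overfeeding and in the recovery that follows.

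Fatty acid synthesis starts in the cytosol, where acetyl-CoA cut from citrate is carboxylated to malonyl-CoA and then built up to palmitate by fatty acid synthase. Elongases add carbons and desaturases introduce double bonds, and the products enter membranes, myelin and stored fat. In liver the pathway is known to respond to insulin and carbohydrate through the transcription factor SREBP-1c, whereas in brain a large part of it serves the membranes of glia and neurons.

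The counts of the 24 libraries summed to between 8928182 and 34848437. The labels divide the mice into cohorts of July and September and into extraction rounds 1 and 2. They give RNA integrity numbers (RIN) of 8.0 to 10 in Control d14 and 9.6 to 10 in ExpOF d14. On d14+3 the RIN was 7.2 to 9.9 in control and 8.8 to 10 in ExpOF mice. The 11 hypothalamic neuron markers examined, among them Avp, Oxt, Hcrt and Pmch, were above 0 in all 23 libraries used. Control d14 replicate 4 was left out, as a mouse of that group was removed upstream for poor RNA, although the label of this library gives a RIN of 9.8. It stood apart in several of the genes described here. Its Acaca level was 121 CPM (counts scaled to library size), against 65.1 to 91.4 CPM in the other Control d14 libraries. Its Scd2 level was 1867 CPM, against 2380.3 to 2642 CPM. Its astrocyte water channel Aqp4 was at 26.8 CPM. The choroid plexus marker Ttr was at 4490.1 CPM in it, but also at 2889 CPM in Control d14 replicate 5 and 1204 CPM in ExpOF d14+3 replicate 4, both of which were used. Values below are from the 23 other libraries, and results that depend on replicate 4 are also given with it.

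Promoter sequence was at hand for 7 of the 10 genes in RefSeq (GRCm38.p6), in 9 windows of 250 bases that end just before a start site. Letter patterns of 4 kinds were searched on both strands: the sterol regulatory element as TCACNCCAC, the E-box CACGTG, the CCAAT box and the GC box GGGCGG. The first was found in 0 of the 9 windows and in 1.05% of the 32851 promoters in the table, and the E-box in 0 of 9 and in 6.02%. The CCAAT box was found in 4 of 9 windows, against 33.8% of all promoters, and the GC box in 4 of 9, against 32.7%. These matches describe letters only. The windows of Srebf1, Acly and Elovl6 are shown because these genes had the smallest exact permutation p-values on d14, and that of Fasn because its level moved with that of Acly from mouse to mouse. Capitals mark GGGCGG or CCAAT on either strand, and each window reads 5′ to 3′ on the strand of its gene.
Srebf1, chr11:60210472-60210721, minus strand: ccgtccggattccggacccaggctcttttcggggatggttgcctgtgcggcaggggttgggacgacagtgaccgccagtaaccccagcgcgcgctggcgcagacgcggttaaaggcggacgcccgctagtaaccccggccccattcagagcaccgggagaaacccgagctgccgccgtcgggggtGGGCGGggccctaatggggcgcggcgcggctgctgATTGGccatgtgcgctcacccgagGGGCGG
Acly, chr11:100528001-100528250, minus strand: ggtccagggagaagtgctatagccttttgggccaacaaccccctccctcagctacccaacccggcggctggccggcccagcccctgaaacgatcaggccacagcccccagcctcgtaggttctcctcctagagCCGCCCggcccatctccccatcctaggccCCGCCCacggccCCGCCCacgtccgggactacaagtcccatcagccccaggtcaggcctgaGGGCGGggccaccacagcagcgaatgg
Fasn, chr11:120824548-120824797, minus strand: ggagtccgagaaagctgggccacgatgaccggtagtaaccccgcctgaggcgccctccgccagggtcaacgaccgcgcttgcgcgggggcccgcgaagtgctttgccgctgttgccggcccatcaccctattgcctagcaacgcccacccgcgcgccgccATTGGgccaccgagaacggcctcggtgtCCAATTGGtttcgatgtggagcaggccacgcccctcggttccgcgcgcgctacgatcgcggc
Elovl6, chr3:129532136-129532385, plus strand: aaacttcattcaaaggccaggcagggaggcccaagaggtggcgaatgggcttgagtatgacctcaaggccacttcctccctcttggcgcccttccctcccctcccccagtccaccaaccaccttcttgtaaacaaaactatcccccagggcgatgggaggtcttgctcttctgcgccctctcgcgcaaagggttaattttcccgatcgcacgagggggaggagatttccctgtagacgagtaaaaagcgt
The Acly window held 4 GC boxes and no CCAAT box, the Fasn window 3 CCAAT boxes and no GC box, and the Elovl6 window neither. The Srebf1 window shown, 1 of 3 listed for this gene, held 2 GC boxes and 1 CCAAT box.

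The 10 genes spanned a wide range of levels. Per kilobase of annotated exon, Scd2, the main stearoyl-CoA desaturase of brain, stood at 464 CPM per kilobase on average over the 23 libraries, higher than 99.8% of the genes tested. Scd1, its counterpart best known from liver and fat, followed at 100.2 CPM per kilobase. The front-end desaturases of polyunsaturated fatty acids came next, Fads2 at 93.6 and Fads1 at 60.9 CPM per kilobase. ATP citrate lyase, Acly, was at 54.2 and fatty acid synthase, Fasn, at 40.6 CPM per kilobase. Srebf1, which encodes SREBP-1, was at 23.0 and the elongase Elovl6 at 14.0 CPM per kilobase. The acetyl-CoA carboxylases were lowest, with Acaca at 4.44 and Acacb at 1.45 CPM per kilobase, and Acacb exceeded only 32.9% of the genes tested.

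This order of levels per kilobase was almost the same from mouse to mouse. Of the 9 pairs of neighbours, 6 were ordered the same way in 23 of 23 libraries, and Fads1 over Acly and Srebf1 over Elovl6 in 22 of 23. Scd1 and Fads2 could not be ordered, as Scd1 was the higher in 8 of 23 libraries. The spread differed too. Scd2 had a coefficient of variation of 4.11% over the 23 libraries, lower than all but 1.99% of the 10738 genes with a mean of at least 10 CPM. That of Scd1 was 35.2%, and 99.1% of those genes had a lower one. The level of Scd1 ran from 363 to 1148 CPM, whereas the lowest and highest values of Scd2 were 2380.3 and 2724 CPM.

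**Figure D1:**
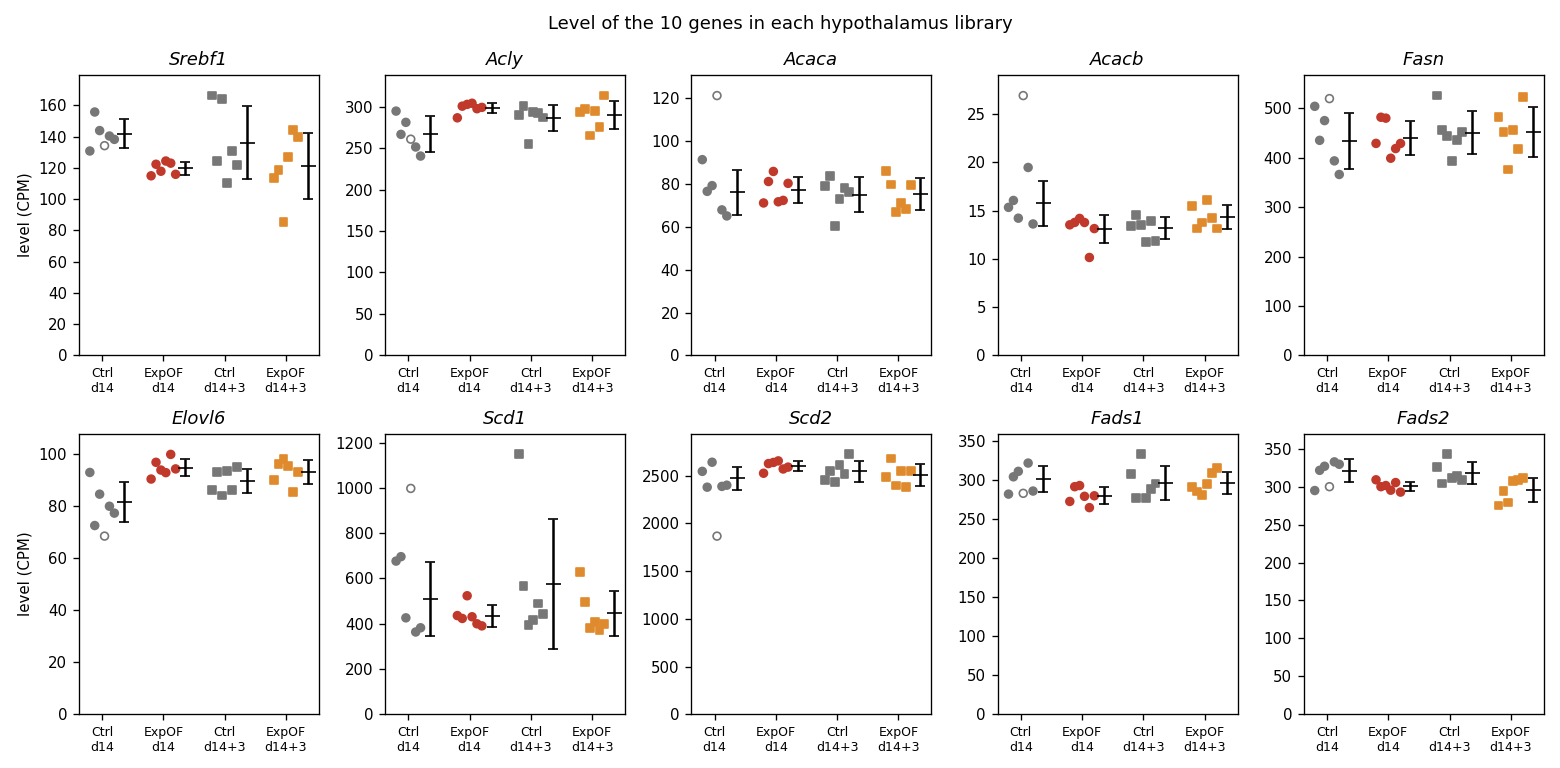
Level in CPM (y axis, linear, its own scale for each gene) of the 10 genes in every library, with the 4 groups on the x axis. Filled symbols are the 23 libraries used, the open circle is Control d14 replicate 4, and bars give the mean ± SD of the filled symbols. The ExpOF d14 values of Srebf1, 115 to 124 CPM, lie below every Control d14 value, and single high libraries stand out for Scd1.

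After 14 days of overfeeding, 0 of the 10 genes passed the threshold of 0.05 on the adjusted p between ExpOF (n = 6) and control mice (n = 5). The test was edgeR's quasi-likelihood F-test, with Benjamini-Hochberg adjustment over all genes tested. The whole data set had 1 such gene (0.00527%). Unadjusted p-values fell under 0.05 for 4 of the 10, with Acly and Elovl6 higher and Srebf1 and Acacb lower in ExpOF mice. As 26.7% of all genes tested were under this threshold, the share of the 10 was not far from the background. Their median log2 fold change was -0.04 and that of all genes -0.02. DESeq2's Wald test called 1 of the 10, Elovl6, and 0.874% of all genes. The 24-library fit called 0 of the 10 as well.

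Srebf1 (ENSMUSG00000020538, chromosome 11 of mm10 from 60199089 to 60222581) encodes SREBP-1, the transcription factor that drives the lipogenic enzymes. On d14 the level of Srebf1 was between 115 and 124 CPM in ExpOF mice, with a median of 120.1 CPM. In control mice it was 131, 138, 140.4, 144 and 156 CPM. The groups did not overlap, and Srebf1 was the only one of the 10 genes of which this was true, while the groups of 2.5% of all genes tested did not overlap. The log2 fold change was -0.24 (SE 0.108), with an adjusted p of 0.159 in edgeR's quasi-likelihood test. A two-sided exact permutation test gave p = 0.00216, the smallest value that 6 against 5 mice allow. With Control d14 replicate 4 included the groups still did not overlap, at 125 CPM or less against 130 CPM or more (6 against 6 mice, exact permutation p = 0.00216).

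On d14+3 Srebf1 ranged from 85.3 to 144 CPM in ExpOF mice (median 123) and from 111 to 166 CPM in control mice (median 127), so that the groups overlapped widely. ExpOF differed from control by a log2 fold change of -0.17 (SE 0.103; adjusted p = 0.766 in edgeR). Single libraries carried much of it: the log2 fold change was -0.09 without ExpOF d14+3 replicate 3, the mouse at 85.3 CPM, -0.10 without Control d14+3 replicate 1 and -0.11 without Control d14+3 replicate 3. The SREBP-1 gene shares its locus with Rai1 on the opposite strand, and whether the reads were counted by strand is not stated in the sources used here. Rai1 itself differed by a log2 fold change of 0.11 (SE 0.0893; adjusted p = 0.425 in edgeR) on d14. On d14+3 the Rai1 value was 0.09 (SE 0.0850; adjusted p = 0.791 in edgeR). Any part of Rai1 reads in the Srebf1 counts was not tested.

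Acly (ENSMUSG00000020917, chromosome 11 from 100476353 to 100528000) encodes the enzyme that cuts citrate into cytosolic acetyl-CoA. On d14 its level lay between 286 and 304 CPM in ExpOF mice, with a median of 299.7 CPM, and at 240.3, 251, 266, 281 and 295 CPM in control mice. Of the 6 ExpOF mice, 5 were above every control mouse. This made a log2 fold change of 0.16 (SE 0.0553; adjusted p = 0.135 in edgeR; exact permutation p = 0.00433). After 3 days of recovery the levels of Acly overlapped, 265 to 313 CPM in ExpOF and 255 to 301 CPM in control mice, with a log2 fold change of 0.02 (95% confidence interval -0.09 to 0.13).

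The next step, carboxylation to malonyl-CoA, is carried out by Acaca in the cytosol and by Acacb at the mitochondrial surface, where malonyl-CoA restrains fatty acid oxidation. Acaca (ENSMUSG00000020532, chromosome 11 from 84129672 to 84401651) overlapped between the groups on both days. On d14 it ranged from 71.1 to 85.9 CPM in ExpOF and from 65.1 to 91.4 CPM in control mice, with a fold change on the log2 scale of 0.02 (interval -0.16 to 0.21; adjusted p = 0.893 in edgeR). With Control d14 replicate 4 in the fit the d14 value was -0.10. The d14+3 ranges were 66.9 to 86.0 CPM and 60.3 to 83.9 CPM, a log2 fold change of 0.00 (interval -0.17 to 0.18). The d14 value also depends on how transcript length is treated: with the trend of fold change on length removed over all genes it was -0.21 (SE 0.0691; adjusted p = 0.172 in edgeR), and Acaca, at 17074 bases, is longer than 98.7% of the genes tested.

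Acacb (ENSMUSG00000042010, chromosome 5 from 114146535 to 114250761) was at 10.1 to 14.2 CPM (median 13.6) in ExpOF mice on d14. The control values were 13.6, 14.2, 15.3, 16.0 and 19.5 CPM. Of the ExpOF mice, 3 lay below all control mice and the ranges overlapped between 13.6 and 14.2 CPM. Acacb had a log2 fold change of -0.25 (SE 0.0936; adjusted p = 0.139 in edgeR; exact permutation p = 0.0195), and it was -0.40 with Control d14 replicate 4 in the fit, whose Acacb level of 26.9 CPM was the highest of all. Leaving out Control d14 replicate 5, the mouse at 19.5 CPM and one of those high in Ttr, brought it to -0.16.

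On d14+3 the order of the groups was the other way for Acacb, with 13.1 to 16.1 CPM (median 14.0) in ExpOF and 11.7 to 14.6 CPM (median 13.5) in control mice and a log2 fold change of 0.12 (SE 0.0897; adjusted p = 0.775 in edgeR). The interaction of overfeeding and day, the test of the difference between the days, gave 0.38 on the log2 scale for Acacb (SE 0.130), with an unadjusted p of 0.00772 and an adjusted p of 0.903 in edgeR. It was the only one of the 10 genes under an unadjusted 0.05 in this test, against 4.42% of all genes. Between the control groups themselves, d14+3 against d14, the Acacb log2 fold change was -0.26 (SE 0.0932; adjusted p = 0.214 in edgeR).

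Fasn (ENSMUSG00000025153, chromosome 11 from 120805846 to 120824547), the multifunctional synthase that makes palmitate, overlapped between the groups too. It lay between 399 and 482 CPM (median 429) in ExpOF and between 366 and 504 CPM (median 436) in control mice on d14. The levels on d14+3 were 377 to 523 CPM (median 455) and 393 to 526 CPM (median 448). The log2 fold changes were 0.02 (interval -0.16 to 0.19) and 0.00 (interval -0.17 to 0.17), with adjusted p-values of 0.920 and 0.997 in edgeR.

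Elovl6 (ENSMUSG00000041220, chromosome 3 from 129532355 to 129638495) elongates palmitate to stearate. It had the smallest edgeR p-value of the 10 genes on d14. Its level was between 90.3 and 99.7 CPM in ExpOF mice (median 93.9) and 72.4, 77.2, 79.8, 84.5 and 92.8 CPM in control mice. Only Control d14 replicate 1, at 92.8 CPM, reached the ExpOF range. Elovl6 had a log2 fold change of 0.22 (SE 0.0573), a fold of 1.16, with an unadjusted p of 0.000901 and an adjusted p of 0.135 in edgeR; the exact permutation p was 0.00649. DESeq2 gave the same log2 fold change, 0.22, at an adjusted p of 0.0375. Without Control d14 replicate 1 edgeR called both Elovl6 (0.27, adjusted p = 0.0200) and Acly (0.21, adjusted p = 0.0216), but this omission also raised the share of all genes called from 0.00527% to 22%.

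Split by cohort, the Elovl6 log2 fold change was 0.29 for July and 0.11 for September (edgeR). On d14+3 the ExpOF mice had 85.3 to 98.1 CPM and the control mice 83.9 to 94.8 CPM of Elovl6, with a log2 fold change of 0.05 (SE 0.0544; adjusted p = 0.801 in edgeR). The interaction was -0.16 (SE 0.0790; unadjusted p = 0.0502, adjusted p = 0.903 in edgeR).

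The stearoyl-CoA desaturases place the first double bond in stearate and palmitate. Scd1 (ENSMUSG00000037071, chromosome 19 from 44394455 to 44407879) had the largest negative log2 fold change of the 10 genes on d14+3 and the widest interval on both days. The control mice of d14 had 363, 382, 426, 676 and 696 CPM of Scd1, and the ExpOF mice 390.3 to 523 CPM (median 427). The log2 fold change of -0.23 (interval -0.72 to 0.27; adjusted p = 0.534 in edgeR) became -0.09 without Control d14 replicate 2 and -0.10 without replicate 1, the mice at 696 and 676 CPM. With Control d14 replicate 4 in the fit it was -0.43.

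On d14+3 Scd1 reached 1148 CPM in Control d14+3 replicate 1, while the other 5 control mice had 393 to 566 CPM and the ExpOF mice 370.0 to 627 CPM. The log2 fold change was -0.37 (interval -0.84 to 0.10; adjusted p = 0.768 in edgeR; exact permutation p = 0.344). It was -0.05 without Control d14+3 replicate 1. By cohort it was -0.05 (July) and -0.61 (September), the cohort of that mouse.

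Scd2 (ENSMUSG00000025203, chromosome 19 from 44293674 to 44306864) had the highest counts of the 10 genes. On d14 it was between 2527 and 2656 CPM in ExpOF and between 2380.3 and 2642 CPM in control mice, and 1 ExpOF mouse was above every control mouse. Its log2 fold change was 0.07 (interval -0.01 to 0.16; adjusted p = 0.248 in edgeR; exact permutation p = 0.0476), and it was 0.15 with Control d14 replicate 4 in the fit. On d14+3 it was -0.02 (interval -0.11 to 0.06). Scd2 was the more abundant desaturase per kilobase in 23 of 23 libraries, by a median factor of 5.54, and the factor was lowest, 1.91, in Control d14+3 replicate 1. In the left-out Control d14 replicate 4 it was 1.68.

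Fads1 (ENSMUSG00000010663, chromosome 19 from 10182888 to 10195317) and Fads2 (ENSMUSG00000024665, chromosome 19 from 10062765 to 10101746) encode the delta-5 and delta-6 desaturases of polyunsaturated fatty acids and are neighbours on the chromosome. Fads1 on d14 was between 264 and 293 CPM (median 279) in ExpOF and between 282 and 322 CPM (median 304) in control mice, and 4 ExpOF mice were below every control mouse. For Fads1 the log2 fold change was -0.10 (interval -0.21 to 0.01; adjusted p = 0.206 in edgeR; exact permutation p = 0.0411). On d14+3 it was 0.00 (interval -0.10 to 0.10), with 280.4 to 315 CPM in ExpOF and 276 to 333 CPM in control mice.

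Fads2 had a negative log2 fold change on both days. Its d14 levels were 293 to 309 CPM (median 301) in ExpOF and 295 to 333 CPM (median 327) in control mice, which gave a log2 fold change of -0.09 (interval -0.19 to 0.00; adjusted p = 0.191 in edgeR; exact permutation p = 0.0238). On d14+3 they were 275 to 311 CPM (median 301) against 304 to 343 CPM (median 313), and 3 ExpOF mice lay below every control mouse. The log2 fold change there was -0.10 (interval -0.19 to -0.01; adjusted p = 0.651 in edgeR; exact permutation p = 0.0325). In both cohorts Fads2 was lower in ExpOF mice on both days, with log2 fold changes between -0.12 and -0.08.

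**Figure D2:**
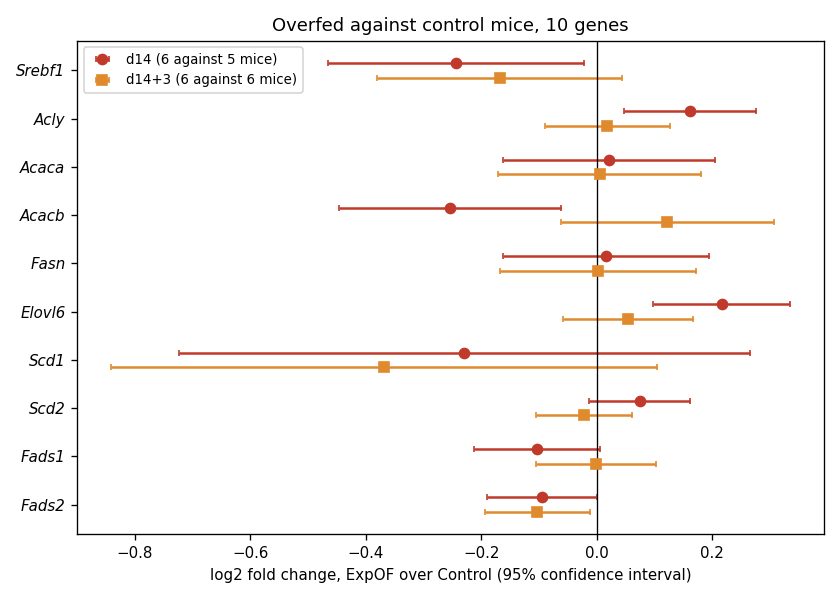
Log2 fold change of ExpOF over control mice (x axis) for each of the 10 genes (y axis), on d14 as circles and on d14+3 as squares, from edgeR's quasi-likelihood fit with 95% confidence intervals. The d14 intervals of Srebf1, Acly, Acacb and Elovl6 and the d14+3 interval of Fads2 leave out 0 before adjustment, and those of Scd1 are the widest, from -0.72 to 0.27 and from -0.84 to 0.10.

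The other comparisons gave no calls among the 10 genes. On d14+3, edgeR called 0 of the 10 genes between ExpOF and control mice and 0% of all genes, DESeq2 called 0 of the 10 and 0.29% of all genes, and 1 of the 10, Fads2, had an unadjusted p under 0.05, against 7.11% of all genes. The groups overlapped for all 10 genes on d14+3, and did not for 0.421% of all genes. The interaction of overfeeding and day gave 0 calls among the 10 and 0% among all genes in edgeR and 0 and 0% in DESeq2.

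Control mice of d14+3 and d14 differed in more genes, 1.15% by edgeR and 2.8% by DESeq2, but in 0 of the 10. At an unadjusted p under 0.05 there were 2 of the 10, Acacb at -0.26 and Elovl6 at 0.14 (SE 0.0572), against 12.7% of all genes. The groups did not overlap for 0 of the 10 and for 1.58% of all genes. In ExpOF mice, d14+3 against d14 gave 0 of 10 by either tool, against 0% of all genes by edgeR and 1.06% by DESeq2. The count at an unadjusted p under 0.05 was 0 of the 10, with 7.79% of all genes, and groups that did not overlap numbered 0 of the 10, with 0.832% of all genes.

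The spread of the 10 genes differed between the groups of d14, which was described and not tested. The SD of log2 CPM was smaller in ExpOF d14 (n = 6) than in Control d14 (n = 5) for 10 of 10, with a median ratio of 0.470. The same held for 73.0% of all genes tested, at a median ratio of 0.682. Acly had the smallest ratio, 0.260, from an SD of 0.0308 in ExpOF against 0.118 in control mice, and Scd1 a ratio of 0.328. On d14+3 the ratio was under 1 for 5 of the 10 and for 47.7% of all genes.

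The level of Scd1 moved with that of adipocyte markers from library to library. The 4 adipocyte markers Adipoq, Plin1, Cidec and Lep, which encode adiponectin, perilipin, a lipid-droplet protein and leptin, summed to 1.29 to 47.6 CPM in Control d14, 0.815 to 60.5 CPM in ExpOF d14, 1.39 to 117 CPM in Control d14+3 and 3.83 to 57.6 CPM in ExpOF d14+3, and none of the 4 was at 0 in any library. The 3 libraries with most Scd1 were Control d14+3 replicate 1 and Control d14 replicates 1 and 2. Their adipocyte markers summed to 117, 31.0 and 47.6 CPM. The order was not strict. ExpOF d14 replicate 3 had a marker sum of 60.5 CPM at 523 CPM of Scd1. Control d14+3 replicate 2 had 35.0 CPM of Adipoq, 15.8 CPM of Plin1, 31.2 CPM of Cidec and 14.0 CPM of Lep at 566 CPM of Scd1. The left-out Control d14 replicate 4 had both a high Scd1 level, 997 CPM, and the highest adipocyte sum, 121 CPM. In a bulk sample, fewer cells of a type and less RNA per cell cannot be told apart.

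Over the 23 libraries, after subtraction of group means, log2 Scd1 and the mean log2 adipocyte marker level had a Pearson r of 0.78 (permutation p = 1e-05, the smallest that 100000 resamples can give; adjusted p = 0.00015) and a Spearman rho of 0.83 (permutation p = 1e-05; adjusted p = 0.0001). Without the 2 libraries farthest from the median of the marker level r was 0.77, and within cohorts it was 0.69 (July) and 0.83 (September). The leptomeningeal markers Dcn, Lum, Col1a1 and Col1a2 gave an r of 0.82 with Scd1 (permutation p = 3e-05, adjusted 0.0003), a rho of 0.74 (p = 0.00015, adjusted 0.00112) and an r of 0.67 without the 2 farthest libraries. These measures and the neuron markers were added after the data had been seen, 30 relations in all. With the adipocyte marker level as a covariate, the Scd1 log2 fold change was -0.10 (SE 0.143) on d14 and -0.27 (SE 0.135; adjusted p = 0.713) on d14+3 in edgeR. For Scd2 and the adipocyte markers r was -0.17.

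**Figure D3:**
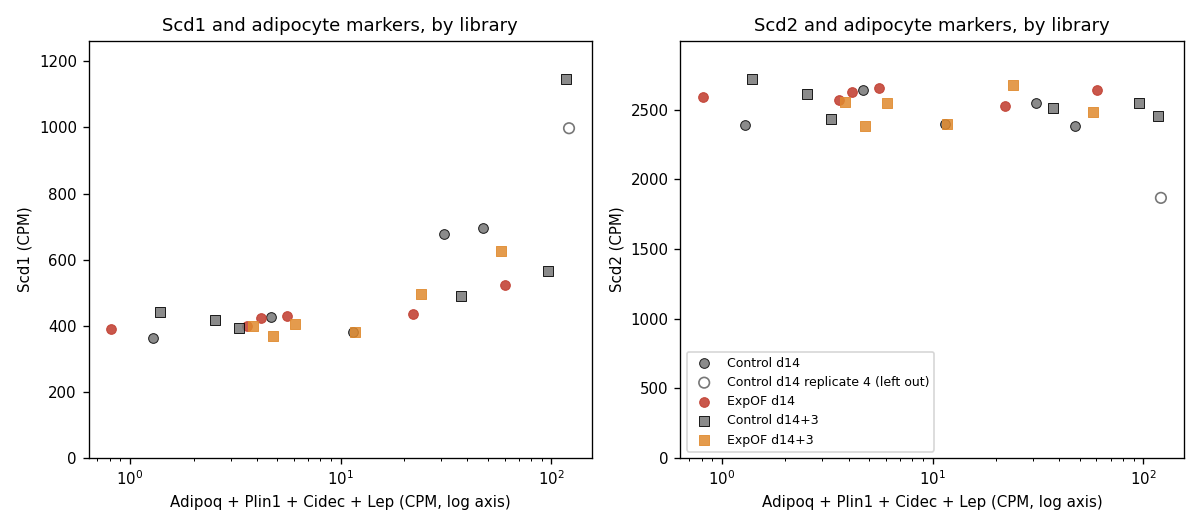
Level of Scd1 (left) and Scd2 (right) in CPM (y axis, linear) against the summed CPM of the adipocyte markers Adipoq, Plin1, Cidec and Lep (x axis, log scale), with 1 point for each library, circles for d14, squares for d14+3 and an open circle for the left-out library. Scd1 is highest, at 1148 CPM, in the library used with the highest adipocyte sum, 117 CPM, and Scd2 stays between 2380.3 and 2724 CPM in the 23 libraries used.

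Pairs of the 10 genes were compared from mouse to mouse within groups. Of 45 pairs, 15 had an adjusted permutation p under 0.05 for Pearson's r over the 23 libraries after subtraction of group means. For Spearman's rho 13 pairs passed. The share of pairs past this threshold among all genes was not examined. The permutation p-values are approximate and may be too small, as the shuffles ignored the unequal spread of the groups. Acly and Acaca, consecutive enzymes of the pathway, had the highest r of all, 0.85 (permutation p = 1e-05, adjusted 0.00045), and a rho of 0.78 (p = 3e-05, adjusted 0.00075). Acaca and Fasn had an r of 0.72 (p = 0.00014, adjusted 0.00225) and a rho of 0.78 (p = 5e-05, adjusted 0.00075). Acly and Fasn had an r of 0.67 (p = 0.00046, adjusted 0.00414) and a rho of 0.57 (p = 0.00553, adjusted 0.0249). These 3 synthesis enzymes thus varied together. Without the 2 libraries farthest from the median of the first gene their r values were 0.78, 0.77 and 0.69. Within cohorts they lay between 0.54 and 0.94. Genes outside the pathway also varied with these enzymes, as described below. Acaca and Fasn have annotated exons longer than those of 98.7% and 93.9% of the genes tested. Any part of transcript length in these relations was not tested.

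Elovl6 and the desaturases gave further relations. Elovl6 and Scd2 had an r of 0.63 (permutation p = 0.00134, adjusted 0.0067) and a rho of 0.66 (p = 0.00078, adjusted 0.00501), with 0.63 without the 2 farthest libraries, 0.60 in July and 0.75 in September. Fasn and Scd1 had an r of 0.62 (p = 0.00126, adjusted 0.0067) and a rho of 0.60 (p = 0.00286, adjusted 0.0143). This last relation differed in size between the cohorts, with an r of 0.23 in July and 0.88 in September, a difference that was not tested.

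Srebf1 varied with the polyunsaturated desaturases. It had an r of 0.69 with Fads1 (permutation p = 0.0002, adjusted 0.00225; rho 0.67, p = 0.00071, adjusted 0.00501). With Fads2 the r was 0.71 (p = 0.00017, adjusted 0.00225) and the rho 0.76 (p = 7e-05, adjusted 0.000787). Without the 2 farthest libraries the r values were 0.71 and 0.70, and within cohorts they lay between 0.64 and 0.86. Fads1 and Fads2 had an r of 0.66 with each other (p = 0.00061, adjusted 0.00437; rho 0.62, p = 0.00194, adjusted 0.0109). With Acly and Acaca, known targets of SREBPs, the r of Srebf1 was 0.01 and -0.12, and with Fasn 0.43 (adjusted permutation p = 0.102). With Elovl6 it was -0.55 (p = 0.00681, adjusted 0.0255; rho -0.53, p = 0.00954, adjusted 0.0358). Acacb had no relation past the threshold with any of the other 9.

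**Figure D4:**
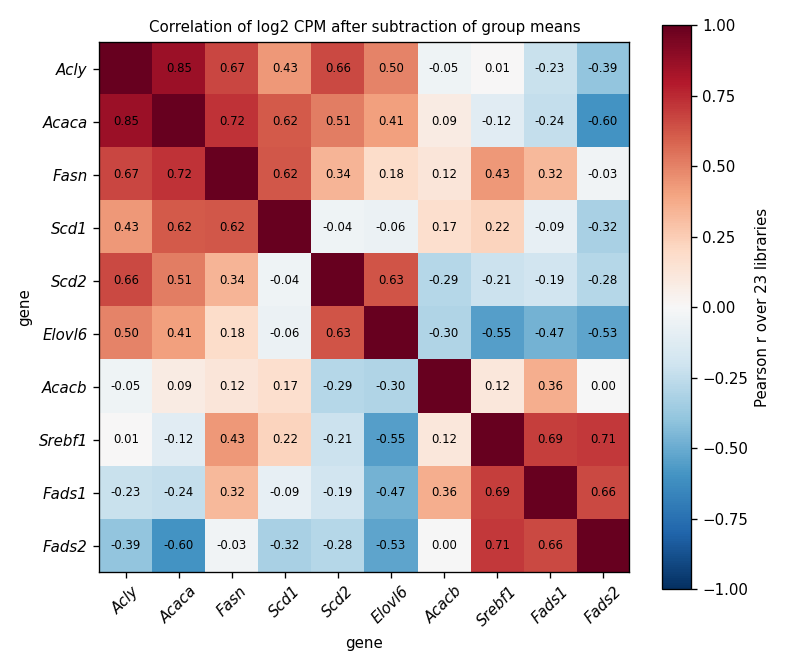
Pearson r (colour, from -1 to 1, and printed) of log2 CPM over the 23 libraries after subtraction of group means, for every pair of the 10 genes on both axes. Acly, Acaca and Fasn have r of 0.67 to 0.85 with one another, and Srebf1, Fads1 and Fads2 have r of 0.66 to 0.71.

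These relations ran alongside the cell type markers. Among the 30 relations set out for oligodendrocyte markers, astrocyte markers and RIN, 2 had an adjusted permutation p under 0.05 for Pearson's r. Scd2 and the astrocyte marker level had an r of 0.75 (p = 5e-05, adjusted 0.0015) and a rho of 0.63 (p = 0.00152, adjusted 0.0432), and the r was 0.60 without the 2 libraries farthest from the median, 0.77 in July and 0.90 in September. Fads2 and the oligodendrocyte marker level had an r of 0.62 (p = 0.00171, adjusted 0.0256) and a rho of 0.54 (p = 0.00976, adjusted 0.0732), with 0.66 without the 2 farthest libraries, 0.61 in July and 0.58 in September. Srebf1 and the oligodendrocyte markers had an r of 0.55 (permutation p = 0.00590, adjusted 0.0590) and a rho of 0.60 (p = 0.00288, adjusted 0.0432), so that rho passed the threshold and r did not. With RIN the r of Srebf1 was 0.46 (adjusted permutation p = 0.116) and the rho 0.46 (adjusted 0.142).

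Neuron markers, added after the data had been seen, moved with Srebf1, Fads1 and Fads2. Fads2 had an r of 0.83 with them (permutation p = 1e-05, adjusted 0.00015) and a rho of 0.84 (p = 1e-05, adjusted 0.0001). For Srebf1 the r was 0.72 (p = 9e-05, adjusted 0.000675) and the rho 0.82 (p = 1e-05, adjusted 0.0001). Without the 2 farthest libraries these r values were 0.78 and 0.63, and within cohorts they lay between 0.70 and 0.90. Fads1 had an r of 0.61 and Acaca of -0.62, both with p-values adjusted to 0.00975 in the permutation test. How many other genes moved with the cell type markers to this extent was not examined.

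The 6 astrocyte markers summed to 2571 to 2696 CPM in ExpOF d14 and 2168 to 2671 CPM in Control d14, with 4 of 6 higher in ExpOF. The 5 neuron markers summed to 3104 to 3476 CPM and 3039 to 3347 CPM, with 2 of 5 higher. Oligodendrocyte markers summed to 6005 to 7186 CPM and 5773 to 7776 CPM, with 5 of 10 higher.

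Other marker lists leaned one way on d14, up or down. The oligodendrocyte precursor markers were higher in ExpOF mice for 3 of 3, 0 at an unadjusted p under 0.05, with a median log2 fold change of 0.10. Adipocyte markers were lower for 3 of 4 and endothelial markers for 2 of 3. The pituitary gene Gh had a log2 fold change of -2.88 (adjusted p = 0.143 in edgeR). Pituitary markers summed to 0 to 18.2 CPM in ExpOF and 0.116 to 103 CPM in control mice. Of the 11 markers of hypothalamic neurons, 10 were lower in ExpOF mice, 6 of these at an unadjusted p under 0.05. The share of all genes tested under this threshold on d14 was 26.7%. These markers had a median log2 fold change of -0.23 and sums of 706 to 945 CPM against 757 to 1361 CPM. The neuropeptide gene Npy among them was the 1 gene of the whole data set called on d14, at 11.3 ± 1.32 CPM against 24.3 ± 4.17 CPM (log2 fold change -1.10, SE 0.121; adjusted p = 4.69e-05 in edgeR). The choroid plexus markers were lower for 4 of 4, 3 at an unadjusted p under 0.05, with a median of -2.11. Their sums were 33.2 to 39.1 CPM in ExpOF mice, 3023 CPM in Control d14 replicate 5 and 34.5 to 40.9 CPM in the other 4 control mice used. The ependymal markers were lower for 3 of 3, 2 at an unadjusted p under 0.05 (34.3 to 41.7 CPM against 41.1 to 52.6 CPM), and the leptomeningeal markers for 4 of 4, 0 at that threshold (33.6 to 60.9 CPM against 38.4 to 67.6 CPM). The 11 hypothalamic neuron markers also differed between the days. In Control d14+3 against Control d14, 11 were lower, 7 at an unadjusted p under 0.05 in edgeR, with a median of -0.46. In ExpOF d14+3 against ExpOF d14, 10 were lower, 4 at that threshold, with a median of -0.28. Of all genes tested, 12.7% were under this threshold between the control groups and 7.79% between the ExpOF groups. The part of these cell types in the d14 values of the 10 genes was not tested.

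Genes around the pathway gave no calls either. In 9 lists that cover regulators, acetyl-CoA and NADPH supply, elongation, desaturation, mitochondrial fatty acid synthesis, acyl-CoA synthetases, glycerolipid synthesis, oxidation and cholesterol synthesis, 88 of 91 genes were tested. On d14, edgeR called 0 of the 88. At an unadjusted p under 0.05, 8 were higher and 16 lower in ExpOF mice, which together are 27.3% of the 88 beside 26.7% of all genes. On d14+3 edgeR called 0 and 3 had an unadjusted p under 0.05, all lower, which is 3.41% beside 7.11%.

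The 6 suppliers of acetyl-CoA and NADPH all had negative log2 fold changes on d14, with a median of -0.15 beside -0.02 for all genes. Pgd, an NADPH-making enzyme of the pentose phosphate pathway, stood at 53.0 ± 2.36 CPM in the 6 ExpOF mice and 60.2 ± 5.77 CPM in the 5 control mice (mean ± SD, as below). The 4 other desaturation genes tested were also lower, with a median of -0.20. Cyb5r3, the reductase that passes electrons to the desaturases by way of cytochrome b5, stood at 99.8 ± 2.20 CPM against 119 ± 12.9 CPM, with a log2 fold change of -0.25 (SE 0.0757; adjusted p = 0.135 in edgeR). Scd3 was at 4.97 ± 0.835 and 6.12 ± 1.06 CPM on d14 and at 5.92 ± 0.440 and 7.01 ± 0.456 CPM on d14+3, log2 fold changes of -0.30 and -0.25 that did not pass the adjusted threshold.

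In the elongation list, 6 of 11 genes were higher and 5 lower on d14, and Tecr, the reductase that ends each elongation round, was at 497 ± 20.9 CPM in ExpOF and 586 ± 78.8 CPM in control mice. Elovl5, an elongase of polyunsaturated fatty acids, was at 90.7 ± 5.37 CPM against 81.6 ± 6.47 CPM. The 16 regulators were split evenly, 8 higher and 8 lower. The protease gene Mbtps2, which releases SREBPs from the membrane, had a log2 fold change of 0.28 (SE 0.105; adjusted p = 0.140 in edgeR) on d14. Insig1, which retains SREBPs in the endoplasmic reticulum, was at 90.6 ± 8.61 CPM in ExpOF and 104 ± 11.5 CPM in control mice on d14+3 (log2 fold change -0.20, SE 0.0813; adjusted p = 0.594 in edgeR).

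Of the genes that use fatty acids, Acsl4, an acyl-CoA synthetase with a preference for arachidonate, was at 81.3 ± 4.95 CPM in ExpOF and 65.3 ± 9.24 CPM in control mice on d14, or 0.32 on the log2 scale (SE 0.105; adjusted p = 0.135 in edgeR). Mlycd, which breaks down malonyl-CoA, was at 28.4 ± 2.15 against 35.1 ± 5.14 CPM, and Lpin2 of glycerolipid synthesis at 132 ± 6.01 against 119 ± 11.3 CPM. In cholesterol synthesis 14 of 20 genes had negative log2 fold changes on d14 and 17 of 20 on d14+3, with medians of -0.04 and -0.08 beside -0.02 and 0.01 for all genes. Fdps, which makes farnesyl diphosphate, was at 12.6 ± 0.649 and 16.6 ± 3.52 CPM on d14, whereas Sc5d, a late step, was at 94.0 ± 2.72 and 79.6 ± 6.31 CPM.

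The genes whose levels were most like those of the synthesis enzymes were then sought. Among 10728 other genes with a mean of at least 10 CPM, the highest Pearson r with the mean standardized level of Acly, Acaca and Fasn over the 23 libraries, after subtraction of group means, belonged to Cdc42bpb (0.88), Celsr2 (0.86), Mcm3ap (0.86), Mtmr3 (0.85) and Kif13b (0.85). Their annotated exons ran from 7197 to 13017 bases, against a median of 4996 bases among the genes searched. Their d14 log2 fold changes lay between 0.03 and 0.14, with adjusted p-values of 0.335 to 0.776 in edgeR.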

How the data were processed

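RNA of frozen hypothalami was sequenced as poly-A selected, stranded 51-base paired-end libraries. The authors aligned reads to mm10 with STAR, counted them per GENCODE vM22 gene with featureCounts 1.6.4 (its strand setting is not given in the sources used here) and deposited raw counts. Groups came from the labels. Positions and exon lengths are those of the deposited table. The library the authors removed was identified as Control d14 replicate 4, since their supplementary mean counts could be matched only without it.

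Counts were analysed with edgeR 4.0.16 in R 4.3.3: TMM scaling, a filter on low counts (minimum count 10, minimum total 15), a robust quasi-likelihood fit of the 4 groups and Benjamini-Hochberg adjustment with a threshold of 0.05. Levels are CPM, and log2 CPM carries a prior count of 2. Intervals are 95% confidence intervals. DESeq2 1.42.0 was an alternative, as were other filters, scalings, covariates, cohorts and omitted libraries. The tests were tried on simulated data. Replicates are separate mice, of which 5 or 6 limit the precision. The 10 genes and all lists were chosen with earlier results of these data known. Named beside the 10 genes were, from each list, those past the adjusted threshold or else up to 2 with the smallest p, some of which are described, and the 5 genes most like Acly, Acaca and Fasn. A single gene was also compared by a two-sided exact permutation test of mean log2 CPM, 40 tests in all, unadjusted. For correlations, values with group means subtracted were shuffled over all 23 libraries, whatever their group. The spread differed between groups and the subtracted means were not allowed for, so all correlation p-values are approximate.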

Additional observations from a re-analysis of the deposited data

Results flagged for a closer look

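In 40 sets of values, 10 genes in 4 groups, the most extreme library was compared with the others by the gap to its neighbour as a share of the group's range (Dixon's 95% limit, which chance passes in about 1 group in 20), and 4 libraries passed. Acly was lowest in Control d14+3 replicate 3, at 255 CPM, with the next mouse at 287 CPM. Acacb was lowest in ExpOF d14 replicate 5, at 10.1 CPM, with the next at 13.1 CPM; this library also had the smallest total, 8928182 counts. Scd1 was highest in ExpOF d14 replicate 3, at 523 CPM against 436 CPM in the next mouse, and in Control d14+3 replicate 1, at 1148 CPM against 566 CPM. These Scd1 libraries had the highest sums of adipocyte markers of their groups, 60.5 and 117 CPM. Any part of depth or of other cells in these values was not tested.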

How the results depend on the processing

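The counts of the 10 genes called were recomputed 133 times over 5 comparisons, and 131 counts equalled those reported. On d14 the count went from 0 to 1 with DESeq2 (Elovl6), and it ranged from 0 to 2 when single libraries were left out. With the replicate number as a block it stayed 0 in every comparison. Same-numbered mice did not deviate together (correlations over genes from -0.21 to 0.22), so the numbers do not pair the mice. Of 1330 values of single genes, 108 changed sign. Of these, 107 were main values within 1 SE of 0 with an unadjusted p of 0.05 or more in both fits. The other was Acaca on d14, which became -0.21 with the length trend removed; the cause was not tested. The adipocyte covariate was added after the data had been seen. Groups of 5 and 6 mice limit what can be detected: on d14 the 95% interval of Scd1 spans -0.72 to 0.27, while that of Scd2 spans -0.01 to 0.16.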

Other observations

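Ratios of paired enzymes were taken per kilobase of exon. Fasn over Acaca lay between 8.34 and 11.5 in the 23 libraries, with a median of 8.87, and the highest ratio was in Control d14+3 replicate 3. Fads2 over Fads1 had a median of 1.53, and its group medians were 1.54 in both groups of d14, 1.57 in Control d14+3 and 1.46 in ExpOF d14+3. Acaca over Acacb ranged from 1.97 in Control d14 replicate 5 to 4.02 in ExpOF d14 replicate 5. These ratios were not tested.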
